A study of Mus musculus with 12 samples.

Results

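The 10 genes described here encode proteins that recognize the branch site and the 3′ splice site of introns: *U2af1*, *U2af1l4*, *U2af2*, *Sf1*, *Puf60*, *Sf3a1*, *Sf3a2*, *Sf3a3*, *Sf3b1* and *Sf3b2*. They were taken by symbol from a table of 22456 genes, and all 10 were in it. Their skipped exon (SE) events, in which an exon is either joined to both neighbours or left out, were taken by symbol from 2 splicing tables. In fasted liver, 95 of 84592 listed events lay in these genes, and in refed liver 72 of 75694, of which 45 had the same coordinates in both tables. The data are RNA-Seq libraries of bulk liver RNA from 12 male mice on the BALB/cByJ strain, with 3 mice in each of 4 groups: fasted wild-type (Lpin1+/+) littermates, fasted Lpin1-/- mice, refed Lpin1+/+ mice and refed Lpin1-/- mice. The Lpin1-/- mice carry the fatty liver dystrophy (fld) allele in every tissue and lack lipin 1, a phosphatidate phosphatase that is also a transcriptional coactivator. All mice were fasted for 16 hours, singly housed, and the refed mice then had chow for 5 hours, so feeding state and time of day cannot be told apart. The study's methods give the mice an age of 2 to 8 months, and the age behind each library was not used here.

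Splicing begins when the U1 snRNP binds the 5′ splice site and a separate set of proteins marks the other end of the intron. SF1 binds the branch site, the large U2AF subunit (encoded by *U2af2*) binds the pyrimidine tract, and the small subunit (encoded by *U2af1*, or by its relative *U2af1l4*) contacts the AG at the intron end. The U2 snRNP then displaces SF1, and its SF3a and SF3b complexes hold the branch site, with SF3B1 closest to the branch point. PUF60 is related to the large U2AF subunit and helps the recognition of weak 3′ splice sites. Many genes of splicing proteins also carry exons whose inclusion or loss brings an early stop codon, so that the transcript can be degraded by nonsense-mediated decay (NMD).

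The *Lpin1* level checked the labels. In fasted Lpin1+/+ liver it was 22.0, 0.726 and 1.76 RPKM (a read count scaled to transcript length and library size) in replicates 1 to 3, and in refed Lpin1+/+ liver 2.92, 0.784 and 2.77. In the 6 Lpin1-/- livers it lay between 0.00573 and 0.0597 RPKM. Every Lpin1-/- library was below every Lpin1+/+ library, although the difference missed the threshold (adjusted p = 0.0562 in fasted and 0.231 in refed liver by limma). Of the libraries, refed Lpin1+/+ replicate 2 stood furthest from its group, with a mean correlation to the other libraries of its group of 0.933 against 0.949 to 0.984 elsewhere, and held 17750 RPKM of the acute-phase gene *Saa1* against 175 to 2696 RPKM in the other 11. Without that library the number of the 10 genes that passed was the same in each of the 5 comparisons of level. Hepatocyte markers were detected in all libraries, with 8 of 8 genes at a mean of at least 10 RPKM and none at 0. The summed level of 7 macrophage markers was 302 to 802 RPKM in fasted Lpin1-/- liver and 153 to 318 in fasted Lpin1+/+ liver. That of 6 stellate cell and fibroblast markers, mostly *Dcn*, was 194 to 285 and 65.9 to 154 RPKM. In fasted Lpin1-/- replicate 1, 5 cholangiocyte markers summed to 451 RPKM against 32.1 to 45.8 in fasted Lpin1+/+ liver, and 5 erythroid markers to 1940 against 575 to 848. That library also held 1034 RPKM of the acute-phase gene *Lcn2* and had the lowest correlation to its group (0.949) after the one named above. Without it 2 of the 10 genes in place of 1 passed between genotypes in fasted liver, and 3 again with refeeding in Lpin1-/- liver. Which position it takes in the splicing tables is not known, and leaving out each fasted Lpin1-/- position in turn gave 7, 8 and 15 called member events in fasted liver in place of 11. None of these defining markers was at 0, and the part of other cell types in the results below was not tested. In bulk liver, fewer cells of a type and less RNA per cell cannot be told apart.

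Sequences of the exons on which the results turn are given first, 5′ to 3′ on the transcribed strand, from the GENCODE M21 transcripts on GRCm38. *U2af1* on chromosome 17 has a pair of alternative exons of 67 nt after exon 2, of which a mature transcript normally carries one. The pair is shown because its members encode different versions of the same stretch of the protein. The capitals mark the 23 bases at which they differ, with 65.7% identity.
U2af1 upstream exon, chr17:31652502-31652568, minus strand: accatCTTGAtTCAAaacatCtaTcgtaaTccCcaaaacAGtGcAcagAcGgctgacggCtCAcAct
U2af1 downstream exon, chr17:31651646-31651712, minus strand: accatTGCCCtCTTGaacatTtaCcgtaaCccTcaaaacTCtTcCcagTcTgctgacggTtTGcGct

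The next exons are coding exons that were skipped more often in fasted Lpin1-/- liver. They are shown with the 3 bases at each end, next to the splice sites, in capitals.
U2af1 exon 2 of 88 nt, chr17:31654979-31655066, minus strand: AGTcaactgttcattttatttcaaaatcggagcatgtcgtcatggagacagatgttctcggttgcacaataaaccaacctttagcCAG
U2af1l4 exon 6 of 134 nt, chr7:30564474-30564607, plus strand: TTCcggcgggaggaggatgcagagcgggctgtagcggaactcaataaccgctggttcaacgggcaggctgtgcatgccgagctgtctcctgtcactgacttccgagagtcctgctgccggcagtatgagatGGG
U2af1l4 exon 7 of 96 nt, chr7:30564703-30564798, plus strand: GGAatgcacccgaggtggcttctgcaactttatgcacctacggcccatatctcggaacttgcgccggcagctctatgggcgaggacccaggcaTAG
Puf60 exon of 191 nt, chr15:76071466-76071656, minus strand: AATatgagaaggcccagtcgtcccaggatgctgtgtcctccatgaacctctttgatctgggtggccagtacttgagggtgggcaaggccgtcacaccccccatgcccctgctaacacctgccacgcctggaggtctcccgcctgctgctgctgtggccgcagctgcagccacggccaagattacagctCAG

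The next 3 exons, of *U2af2*, *Sf3b1* and *Puf60*, bring a stop codon or another start codon into the transcript when included, and the capitals mark these. For *U2af2* the first 30 bases of a 64-nt exon are shown, which opens with an in-frame TGA. For *Sf3b1* the part of a 56-nt exon up to its in-frame TGA is shown. For *Puf60* the coding part of a 120-nt exon is shown, with the ATG at which the annotated NMD transcript starts.
U2af2, chr7:5068733-5068762, plus strand: TGAaatattgtggggctgagatccctcgta
Sf3b1, from chr1:55014869-55014924, minus strand: gcttctattctgctgctTGA
Puf60, chr15:76079370-76079427, minus strand: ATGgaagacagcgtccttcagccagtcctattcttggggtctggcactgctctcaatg

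Since the small U2AF subunit reads the AG at the intron end, the 3′ splice sites of the members' own variable exons are shown where annotated transcripts cover them. Each line holds the last 20 bases of the intron and the first 10 of the exon, with the AG in capitals. *U2af1l4* has 3 such sites for one exon, giving exons of 160, 134 and 68 nt with the same end, and the site of the 134-nt exon had 15 pyrimidines among its 20 bases against 9 at the other two.
U2af1l4, 160-nt exon: gaagatcttgaattccacAGcccatggtca
U2af1l4, 134-nt exon: gtcacccactttcccctcAGttccggcggg
U2af1l4, 68-nt exon: accgctggttcaacgggcAGgctgtgcatg
Sf3b1, 54-nt exon: aatgcaagttttctttccAGgtagaaggac
Sf3b1, 56-nt exon: gtaaagagataattttctAGgcttctattc
Puf60, 100-nt exon: ggcttactttccatatgcAGacttaaggga
The 54-nt *Sf3b1* exon and the 100-nt *Puf60* exon had 12 pyrimidines each in this window and the 56-nt *Sf3b1* exon 8. These counts describe the letters of the window only.

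All 10 genes were expressed in every liver. By the mean over the 12 livers, on the RPKM scale that corrects for length, *Puf60* was highest at 44.1 RPKM, followed by *U2af1* (32.0), *U2af2* (29.7), *Sf1* (29.4), *Sf3b2* (28.1) and *Sf3b1* (25.9), which lay close together relative to their spread over livers. *U2af1l4* (13.6 RPKM) and the 3 SF3a genes, *Sf3a3* (11.0), *Sf3a2* (9.98) and *Sf3a1* (8.59), formed the lower end. The level of *Puf60* varied least over the 12 livers, by 1.63-fold from lowest to highest, and that of *Sf3a1* most, by 7.72-fold. 

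**Figure D1:**
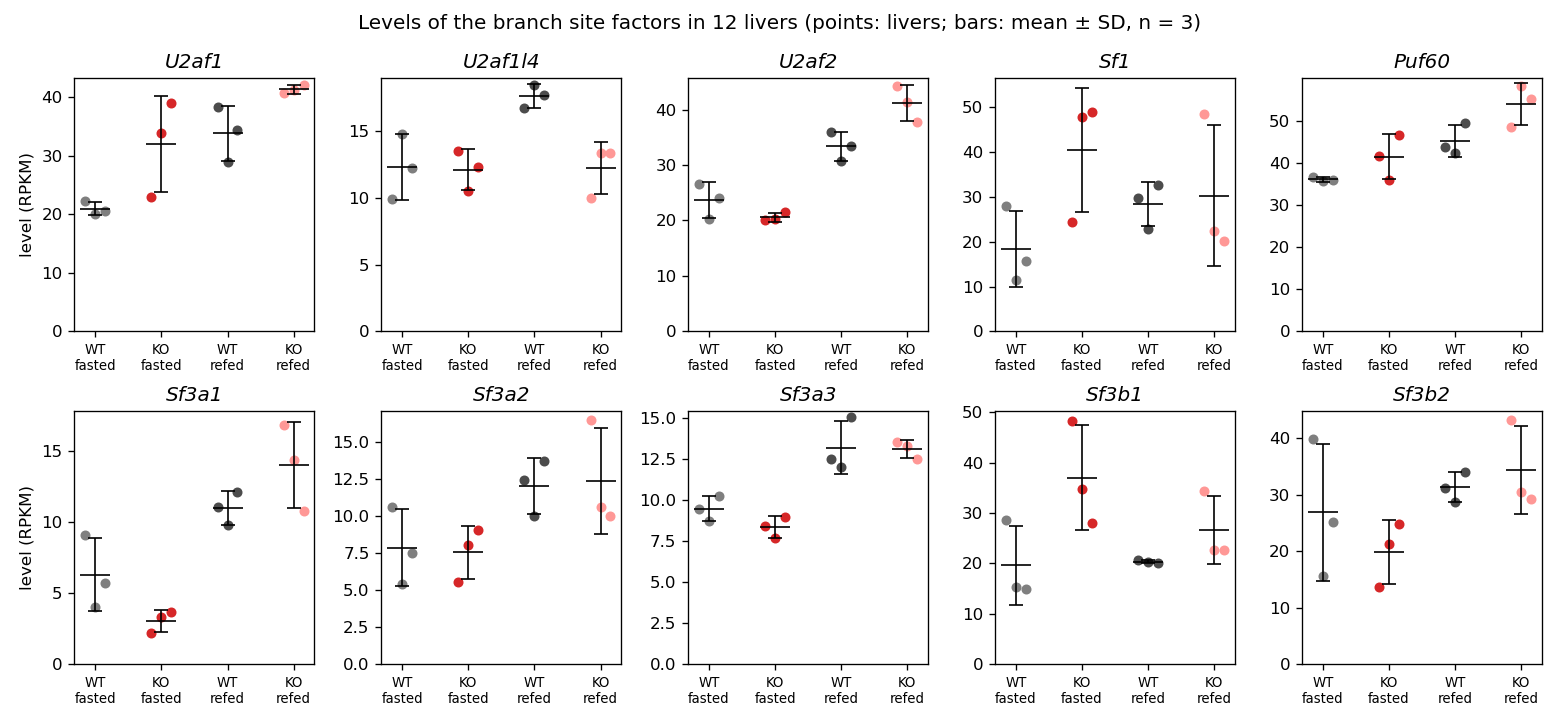
Level in RPKM (vertical axis, from 0) of each of the 10 genes in the 12 livers by group (WT, Lpin1+/+; KO, Lpin1-/-); points are livers and bars the mean ± SD of 3. *U2af2* and *Sf3a1* were higher in all 3 refed than in all 3 fasted Lpin1-/- livers, and *Sf1* and *Sf3b1* spread widely in fasted livers.

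The first comparison asks how the genes differ between the fasted and the refed liver. In Lpin1-/- liver, 3 of the 10 rose with refeeding and none fell. They were *U2af2*, for the large U2AF subunit, and *Sf3a1* and *Sf3a3*, for subunits of SF3a. Of 11507 genes tested, 17.8% rose and 2.92% fell, and 3 of 10 is read against those shares. The median log2 fold change of the 10 was 0.49, and that of all genes 0.25.

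*U2af2* was 20, 20.2 and 21.5 RPKM in fasted and 44.3, 41.4 and 37.8 RPKM in refed Lpin1-/- liver. The groups lay far apart, with every refed liver above every fasted one. On the log2(RPKM + 1) scale used for all tests of level, *U2af2* rose by 0.97 ± 0.15 (SE, n = 3 per group, adjusted p = 0.00209 by limma). In Lpin1+/+ liver its level was 26.6, 20.3 and 24.1 RPKM fasted and 36.0, 30.7 and 33.4 refed, again without overlap, but that difference of 0.48 ± 0.15 did not pass (adjusted p = 0.167). The difference between the genotypes in the feeding response, 0.48 ± 0.22, was not significant either (adjusted p = 0.265).

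*Sf3a1*, whose product bridges U1 and U2 in the early spliceosome, had the largest change of the 10. It was 2.18, 3.33 and 3.68 RPKM in fasted and 16.8, 14.4 and 10.8 RPKM in refed Lpin1-/- liver, a 4.58-fold ratio of means. Again no fasted liver reached the lowest refed liver. The log2 change was 1.88 ± 0.27 (adjusted p = 0.0013). In Lpin1+/+ liver *Sf3a1* was 9.09, 4.04 and 5.74 RPKM fasted and 11.1, 9.80 and 12.1 refed, a log2 difference of 0.77 ± 0.27 that did not pass (adjusted p = 0.214). The interaction of genotype and feeding was 1.11 ± 0.38, with an adjusted p of 0.16.

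*Sf3a3*, for another SF3a subunit, was 8.43, 7.68 and 8.98 RPKM in fasted and 13.5, 13.3 and 12.5 RPKM in refed Lpin1-/- liver. The groups did not overlap, and the log2 change was 0.59 ± 0.15 (adjusted p = 0.0201). This call was lost (log2 change 0.36, adjusted p = 0.222) when libraries were rescaled to a common median ratio, and without fasted Lpin1-/- replicate 2 or any 1 of the 3 refed Lpin1-/- replicates (adjusted p = 0.0548 to 0.0741). *Sf3a2*, for the remaining SF3a subunit, was 5.57 to 9.08 RPKM in fasted and 10.03 to 16.5 in refed Lpin1-/- liver, which did not overlap but did not pass (log2 difference 0.64 ± 0.27, adjusted p = 0.113).

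The other members did not pass in this comparison. *Sf3b2* was 13.7, 21.3 and 24.8 RPKM in fasted and 43.3, 30.6 and 29.2 in refed Lpin1-/- liver (adjusted p = 0.0994), and *Puf60* 41.6, 35.9 and 46.6 against 48.4, 58.1 and 55.1 (adjusted p = 0.101). *Sf1* and *Sf3b1* had the opposite sign, with log2 differences of -0.45 ± 0.39 and -0.46 ± 0.28, and their groups overlapped. *U2af1l4* had nearly the same mean in both, 12.1 RPKM fasted and 12.3 refed. In all, 7 of the 10 genes had every refed Lpin1-/- liver above every fasted one, where 37.5% of all genes did.

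In Lpin1+/+ liver none of the 10 passed by limma, and 1.72% of all genes passed. An unadjusted p under 0.05 was found for 6 of the 10, and for 1594 of all 11507 genes. All 10 log2 differences were above 0, and 9 of them when libraries were rescaled to a common median ratio, while 72.5% of all genes had a difference above 0. Their median was 0.49 against 0.18 for all genes. In 6 of the 10 every refed Lpin1+/+ liver was above every fasted one, against 14.6% of all genes. Rescaling the libraries moved the median of all genes from 0.18 to near 0 in Lpin1+/+ and by -0.19 in Lpin1-/- liver, and the median of the 10 then became 0.26 in both. With that scaling, calls over all genes split into 31 higher and 18 lower in Lpin1+/+ liver in place of 175 and 23, and into 1256 and 566 in place of 2046 and 336 in Lpin1-/- liver.

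The second comparison asks how the genotypes differ in each feeding state. In fasted liver 1 of the 10 passed, *Sf3b1*, which was higher in Lpin1-/- liver. Of all genes 18.8% passed, and 5.63% were higher in Lpin1-/- liver. *Sf3b1* was 48.3, 34.8 and 28.0 RPKM in fasted Lpin1-/- and 28.7, 15.4 and 14.9 RPKM in fasted Lpin1+/+ liver. The lowest Lpin1-/- liver lay just under the highest Lpin1+/+ liver, so the groups overlapped. The log2 difference was 0.91 ± 0.28 (adjusted p = 0.0406). This call is a weak one. It was lost under 10 of 18 alternatives, with adjusted p between 0.00994 and 0.156 over all of them. Among these were the fit of the 6 fasted libraries alone and the fits without fasted Lpin1+/+ replicate 2 or 3, without fasted Lpin1-/- replicate 1 or 2, or without any of 4 refed libraries.

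A further 3 members had an unadjusted p under 0.05 by limma in fasted liver, which made 4 of the 10, against 3802 of all 11507 genes. *Sf1* was 24.5, 47.8 and 48.9 RPKM in Lpin1-/- and 27.9, 11.4 and 15.7 RPKM in Lpin1+/+ liver (log2 difference 1.12 ± 0.39, adjusted p = 0.0685). The lowest Lpin1-/- liver lay under the highest Lpin1+/+ liver, while the other livers were well apart. *U2af1* was 23.0, 33.9 and 39.0 RPKM against 22.2, 20.1 and 20.6, without overlap (0.55 ± 0.20, adjusted p = 0.07). *Sf3a1* was lower in all 3 Lpin1-/- livers, at the values given above, with a difference of -0.80 ± 0.27 and an adjusted p of 0.0569. With the libraries rescaled, all 4 genes passed, with log2 differences of 1.25 for *Sf1*, 0.68 for *U2af1*, 1.04 for *Sf3b1* and -0.71 for *Sf3a1*, where 19.1% of all genes passed. Without fasted Lpin1-/- replicate 1, *Sf1* and *U2af1* passed and *Sf3b1* did not. *U2af2* (20.5 against 23.7 RPKM), *U2af1l4* (12.1 against 12.3), *Sf3a2* (7.57 against 7.87), *Sf3a3* (8.36 against 9.46), *Puf60* (41.4 against 36.1) and *Sf3b2* (19.9 against 26.9) did not pass.

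In refed liver none of the 10 passed between genotypes by limma, where 6.67% of all genes did. An unadjusted p under 0.05 was found for 1 of the 10, and for 2585 of all 11507 genes. *U2af1l4* had that p and was the only member whose Lpin1-/- livers all lay below the Lpin1+/+ livers. It was 10.03, 13.4 and 13.4 RPKM in Lpin1-/- and 16.7, 18.5 and 17.8 RPKM in Lpin1+/+ liver, a log2 difference of -0.50 ± 0.19 (adjusted p = 0.135). *U2af1*, *U2af2* and *Sf3b1* lay above without overlap, with log2 differences of 0.29, 0.29 and 0.34, none of which passed. The refed groups thus did not overlap for 4 of the 10, and for 33.9% of all genes. No member passed in the interaction of genotype and feeding, where 1.28% of all genes did. There 2 members, *Sf3a1* and *U2af2*, had an unadjusted p under 0.05 by limma, and 2082 of all 11507 genes.

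**Figure D2:**
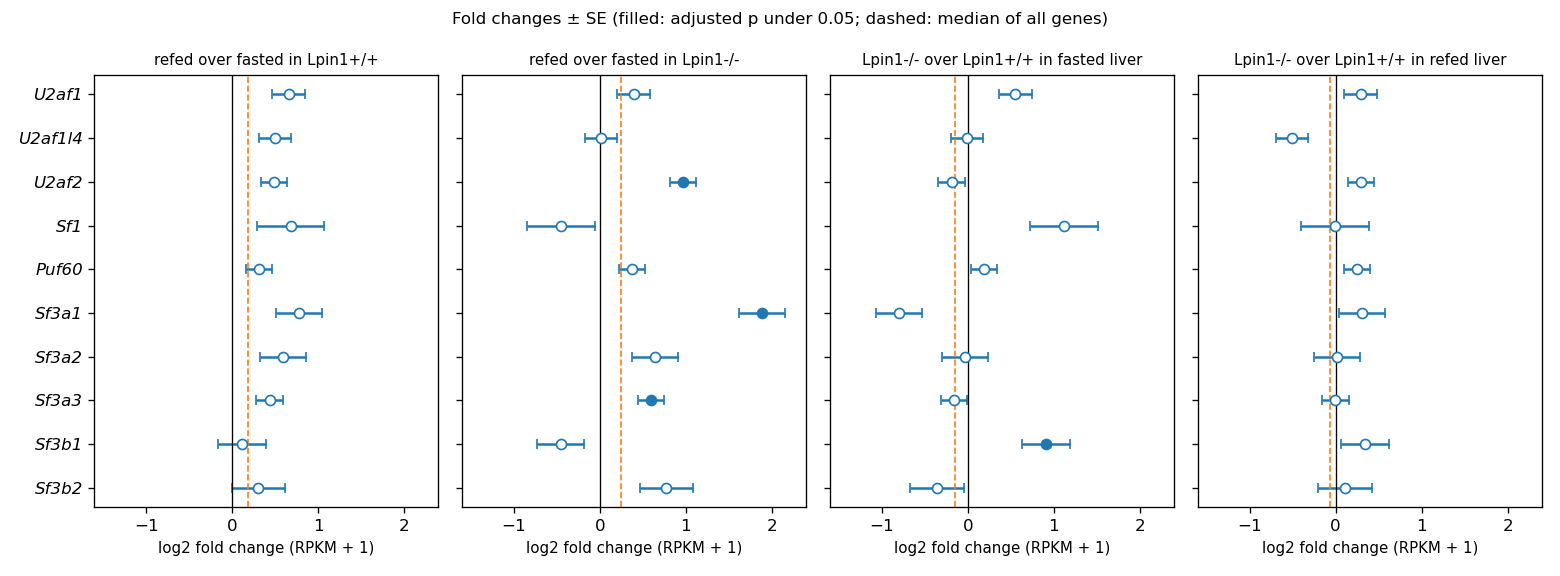
Log2 fold change ± SE of each gene on the log2(RPKM + 1) scale (horizontal axis) in 2 feeding and 2 genotype comparisons; filled points passed an adjusted p of 0.05, and the dashed line is the median of all genes. In refed over fasted Lpin1-/- liver *U2af2*, *Sf3a1* and *Sf3a3* passed, and in fasted liver *Sf3b1* passed between genotypes.

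Other spliceosomal genes were described from lists written by hand. Of 24 genes for other proteins of the U2 snRNP and the A complex, 6 rose and 2 fell with refeeding in Lpin1-/- liver (median log2 change 0.37, against 0.25 for all genes), where 17.8% of all genes rose and 2.92% fell. Those that rose included *Rbm10* (from 2.33 ± 0.29 to 7.47 ± 0.96 RPKM, SD, n = 3) and *Sf3b3*, for a partner of SF3B1 (from 5.40 ± 1.15 to 11.4 ± 3.11 RPKM). Of 9 U1 snRNP proteins 4 rose in Lpin1-/- liver, of 21 proteins of the U4/U6.U5 tri-snRNP 6 rose and 1 fell, and of the 7 Sm core proteins none passed, to be read against the same shares. With refeeding in Lpin1+/+ liver, 2 of the 9, 1 of the 21 and 1 of the 7 rose. None of the 24 passed there, where 1.72% of all genes did. In fasted liver *Rbm17*, for the U2-associated protein SPF45, was higher in Lpin1-/- than in Lpin1+/+ liver (51.8 ± 12.7 against 29.2 ± 6.72 RPKM, log2 difference 0.80 ± 0.22), as were 2 more of these 24 genes, *Smndc1* and *Ddx39b*, while *Rbm10* was lower. That is 3 higher and 1 lower of 24, where 5.63% of all genes were higher, and 1520 of 11507 were lower.

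Within the 10, levels over the 12 livers were closest for *U2af2* and *Sf3a1* (Pearson r = 0.955) and *Sf3a2* and *Sf3b2* (r = 0.93), while *Sf3b1* and *U2af1l4* had r = -0.482. Over all genes the level of *U2af2* was most like those of *Prpf3* (r = 0.988), *Nop2* (0.984) and *Leo1* (0.982), and that of *Sf3b1* most like those of *Tob1* (0.95), *Fem1b* (0.945) and *Plk3* (0.943). *Sf1* was most like *Ncdn* (0.971), *Rrp1b* (0.967) and *Ablim3* (0.952), *Puf60* most like *Eif2b3* (0.951), *Exosc9* (0.945) and *Zcchc9* (0.942), and *U2af1l4* most like *Cdc16* (0.962), *Tbcb* (0.95) and *Banf1* (0.942). These are descriptions over 12 livers that share groups and library scaling.

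The splicing of the members' own transcripts was compared next. Of 95 listed events in fasted liver, 85 had at least 10 counts in every library and were tested, and 11 (12.9%) differed between the genotypes, against 11.3% of all 69644 events tested. The share is therefore near that of all events. The 11 used 6 different skipping junctions in 5 genes, *U2af1*, *U2af1l4*, *Puf60*, *Sf1* and *Sf3b1*. Inclusion was higher in Lpin1-/- liver for 4 of them and lower for 7, where 3.52% of all events were higher and 7.81% lower. The median log2 difference over the 85 was -0.35, and over all events -0.58. *U2af2*, *Sf3b2* and the 3 SF3a genes had no called event here. The fit of all 12 libraries tested the same contrast on the 44 member events found in both tables with enough counts, and there 12 (27.3%) passed in 6 genes, 7 with higher and 5 with lower inclusion, against 16.4% of all 28444 joined events, 5.12% higher and 11.3% lower. The median over the 44 was 0.49 and over all joined events -0.50, so that for the members the split of the calls and the sign of the median turned with the set of events and the fit. Inclusion is given as the percent of the form with the named exon among the length-normalised counts of that form and its skipping junction. Differences are given as the log2 ratio of the 2 forms. Other forms that share the junction are left out, so inclusion is not a share of all transcripts of a gene. Inclusion counts also hold reads inside the exon, so that unspliced RNA adds to inclusion where an exon lies in a retained intron. In the splicing tables the 3 libraries of a group carry no replicate numbers and are given in the order listed.

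Skipping of exons 6 and 7 of *U2af1l4*, for the small U2AF subunit also called U2AF26, separated the genotypes in fasted liver. The junction that joins the exon before them to the exon after them had 99, 45 and 85 reads in fasted Lpin1-/- and 5, 5 and 1 in fasted Lpin1+/+ liver. Every Lpin1-/- library had more of these reads than any Lpin1+/+ library. Against that junction, exon 6 was included at 45.8%, 64.8% and 53.5% in Lpin1-/- and at 94.6%, 96.6% and 99.1% in Lpin1+/+ liver. The log2 ratio differed by -4.70 ± 0.75 (adjusted p = 0.00217 by limma). For exon 7 it was 44.3%, 56.0% and 42.3% against 94.0%, 95.8% and 98.9% (-4.87 ± 0.73, adjusted p = 0.00153).

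The other 2 called events of *U2af1l4* were the 160-nt and 68-nt versions of exon 6 against the same junction (-4.62 and -4.63), so that the 4 are not independent. All 4 stayed past the threshold in every alternative fit run for them, including those without each library. Skipping of exon 7 alone, by a junction from exon 6 to exon 8, did not follow: inclusion was 93.4%, 96.9% and 92.1% in Lpin1-/- and 97.1%, 93.1% and 94.0% in Lpin1+/+ liver (adjusted p = 0.895). The gene overlaps *Psenen* on the other strand, and the files also give the symbol *U2af1l4* to a readthrough gene. The level of *U2af1l4* in fasted liver was 12.1 RPKM in Lpin1-/- and 12.3 in Lpin1+/+.

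After refeeding, the junction that skips both exons had 32, 5 and 20 reads in Lpin1-/- and 1, 3 and 5 in Lpin1+/+ liver. Inclusion of exon 6 was 78.3%, 96.9% and 87.8% against 99.4%, 98.6% and 97.6%, all below but not past the threshold (-2.78 ± 0.82, adjusted p = 0.153). Within Lpin1-/- liver, exon 6 inclusion rose from 54.7% ± 9.53 to 87.7% ± 9.31 with refeeding (SD, n = 3, log2 change 2.88 ± 0.80, adjusted p = 0.0384). That call was lost without any 1 of 6 libraries, among them all 3 fasted Lpin1-/- libraries and the second and the third refed ones (adjusted p from 0.0501 to 0.166). In refed liver, inclusion of exon 7 against the junction that skips it alone was 89.7%, 88.6% and 85.7% in Lpin1-/- liver. It was 97.1%, 95.4% and 96.5% in Lpin1+/+ liver, a difference that did not pass either (adjusted p = 0.158 by limma).

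*Puf60* had 5 listed events in fasted liver, of which 4 differed between genotypes. The 120-nt exon that holds the ATG shown above was included at 47.1%, 38.4% and 31.4% in fasted Lpin1-/- and at 1.81%, 4.22% and 7.22% in fasted Lpin1+/+ liver. The groups lay far apart. It rested on 200 to 245 inclusion reads in each Lpin1-/- library and 15 to 37 in each Lpin1+/+ library, with 95 to 294 reads on the skipping junction. The log2 difference was 3.96 ± 0.71 (adjusted p = 0.00402), and it held in every alternative. In refed liver inclusion was 15.2%, 18.6% and 13.4% against 5.17%, 4.44% and 2.06%, without overlap and not past the threshold (2.28 ± 0.57, adjusted p = 0.0982).

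The other called *Puf60* events in fasted liver were a second exon of the same intron and a constitutive exon, named here after their values were seen. The 100-nt exon was included at 11.7%, 9.19% and 6.62% in Lpin1-/- and at 0.684%, 1.89% and 1.85% in Lpin1+/+ liver (2.78 ± 0.70, adjusted p = 0.0227), a call lost without the first or the third Lpin1+/+ or the first or the second Lpin1-/- library (adjusted p = 0.0568 to 0.0992). In Lpin1-/- liver its inclusion fell to 0.593% ± 0.354 with refeeding (-4.11 ± 0.64, adjusted p = 0.00189). The coding exon of 191 nt was skipped by 122, 63 and 61 reads in fasted Lpin1-/- liver and by 0, 0 and 6 in fasted Lpin1+/+ liver. Its inclusion was 73.5%, 85.8% and 89.4% against 100%, 100% and 98.6% (-6.16 ± 1.02, adjusted p = 0.0027). The 190-nt version of it shared the junction and differed by -6.13. With precision weights, neither passed (adjusted p = 0.119). In refed Lpin1-/- liver the junction had 7, 4 and 0 reads, and inclusion rose with refeeding (log2 change 5.73 ± 1.21, adjusted p = 0.0102).

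*U2af1* exon 2 was skipped by 44, 42 and 34 reads in fasted Lpin1-/- and by 1, 1 and 5 reads in fasted Lpin1+/+ liver. Since 1207 to 2609 reads supported inclusion in each library, the exon stayed mostly included, at 92.3%, 95.3% and 97.1% against 99.8%, 99.8% and 99.2%. The log2 difference was -3.75 ± 0.82 (adjusted p = 0.0115). It was lost with precision weights (adjusted p = 0.0889) and without the first or second library of either group (adjusted p = 0.0556 to 0.0648). After refeeding the skipping junction had 23, 29 and 22 reads in Lpin1-/- and 3, 0 and 5 in Lpin1+/+ liver (-3.08 ± 0.87, adjusted p = 0.135).

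The pair of 67-nt exons of *U2af1* also differed in their use. The upstream exon took 2.61%, 2.37% and 2.46% of the inclusion counts of the pair in fasted Lpin1-/- and 5.45%, 4.92% and 5.90% in fasted Lpin1+/+ liver. In refed liver its share was 4.18%, 7.15% and 4.62% against 10.1%, 6.11% and 7.38%. The fasted groups did not overlap and the refed groups did. This share was computed after the values were seen and was not tested. The downstream exon was the main form in all 12 libraries.

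*Sf3b1* has 2 exons in one intron, of 54 and 56 nt, whose inclusion against the skipping junction was at most 34.3% in any fasted library. The 54-nt exon, which has no exact match in the annotation but lies in annotated retained-intron transcripts, was included at 30.3%, 16.8% and 11.9% in fasted Lpin1-/- and at 0.398%, 4.44% and 0% in fasted Lpin1+/+ liver (4.51 ± 0.98, adjusted p = 0.011). It was read 67, 57 and 26 times against 2, 2 and 0. The call was lost with precision weights (adjusted p = 0.109) and without the first or the third Lpin1+/+ or the first or the second Lpin1-/- library (adjusted p = 0.0649 to 0.0933). The 56-nt exon, annotated in 1 NMD transcript, was included at 34.3%, 16.1% and 15.2% against 2.30%, 20.1% and 2.09%. One Lpin1+/+ library, with only 24 reads on the skipping junction, lay within the Lpin1-/- range, and the difference did not pass (adjusted p = 0.137). The level of *Sf3b1* was itself higher in fasted Lpin1-/- liver by the weak call given above, with overlapping groups. A link between level and exons was not tested.

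*Sf1* had the most listed events, 26 in fasted and 24 in refed liver, and 1 was called. A 93-nt exon that overlaps an annotated coding exon was included at 36.0%, 31.4% and 27.1% in fasted Lpin1-/- and at 7.79%, 11.8% and 4.26% in fasted Lpin1+/+ liver (2.38 ± 0.65, adjusted p = 0.0334). These percents set the 93-nt exon against the skipping junction only. Against that junction the annotated 76-nt exon it overlaps stood at 91.5% in fasted Lpin1-/- and 85.5% in fasted Lpin1+/+ liver. The percents of the 93-nt exon are therefore not its share of all *Sf1* transcripts. The call rested on 2 to 38 inclusion reads per library and was lost without the first or the third Lpin1+/+ or the first or the second Lpin1-/- library (adjusted p = 0.0964 to 0.148). In Lpin1-/- liver inclusion of the 93-nt exon fell from 31.5% ± 4.49 to 9.62% ± 4.13 with refeeding (-2.15 ± 0.61, adjusted p = 0.0439), a call that 8 of 12 fits without 1 library did not keep (adjusted p up to 0.175). The 205-nt exon near the end of the gene, whose inclusion changes the end of the protein, was included at 55.4%, 61.0% and 52.8% against 41.5%, 43.9% and 41.2% in fasted liver. These groups did not overlap either, but the log2 difference of 0.83 ± 0.61 did not pass (adjusted p = 0.417). In the fit of all 12 libraries another 76-nt exon of *Sf1*, further downstream, also passed in fasted liver (2.69 ± 0.83, adjusted p = 0.038), at 99.8% against 97.8% inclusion with overlapping groups and at most 3 skipping reads in a library.

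*U2af2* had no called event between genotypes in the fasted table. An unadjusted p under 0.05 by limma was found for 6 of its 8 tested events, and for 18145 of all 69644. Its 9 listed events used 5 skipping junctions, so that they are not independent. The 64-nt exon that opens with a stop codon was included at 12.7%, 11.4% and 6.03% in fasted Lpin1-/- and at 1.27%, 4.22% and 2.23% in fasted Lpin1+/+ liver (2.14 ± 0.72, adjusted p = 0.074). A 60-nt version with the same start was included at 23.0%, 20.8% and 10.5% against 1.95%, 8.16% and 3.19% (2.41 ± 0.75, adjusted p = 0.0559). Every Lpin1-/- library lay above every Lpin1+/+ library for both, and in the fit of all 12 libraries both passed (adjusted p = 0.0184 and 0.0146). With refeeding of Lpin1-/- mice, inclusion of the 64-nt exon fell to 1.35%, 1.05% and 0.882% (-3.25 ± 0.57, adjusted p = 0.00385) and that of the 60-nt exon to 3.16%, 2.75% and 1.61% (-3.07 ± 0.62, adjusted p = 0.00801). Both calls held in every alternative. Over the same step the level of *U2af2* rose from 20.5 to 41.1 RPKM, and a link between level and exons was not tested. A 120-nt exon in the first intron also fell, from 5.07% ± 1.72 to 1.36% ± 0.198 (-1.89 ± 0.55, adjusted p = 0.0465), which was lost in 10 of 12 fits without 1 library.

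**Figure D3:**
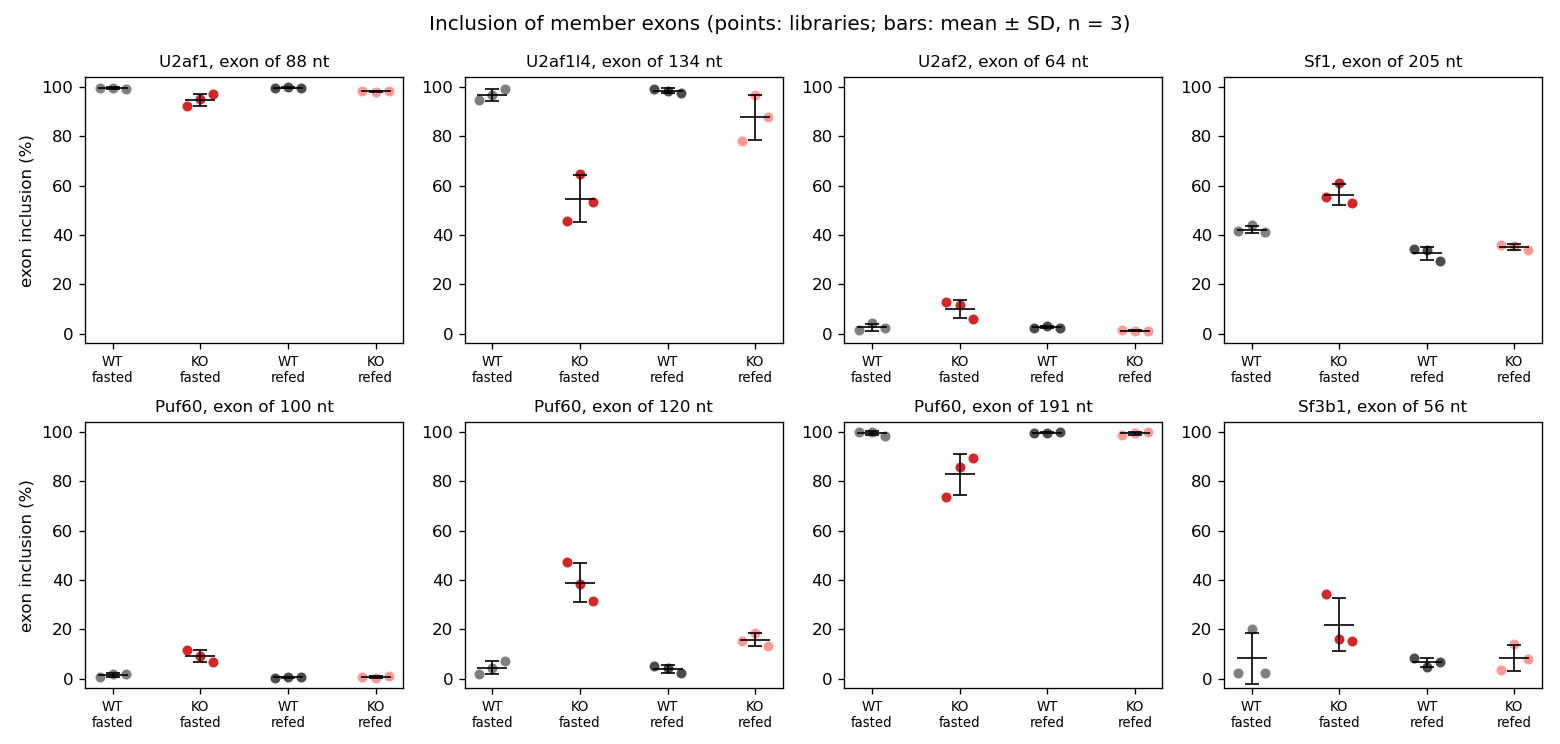
Inclusion in percent (vertical axis) of 8 exons of these genes in the 4 groups (WT, Lpin1+/+; KO, Lpin1-/-); points are libraries and bars the mean ± SD of 3. Fasted Lpin1-/- liver stood apart from the other 3 groups for exon 6 of *U2af1l4* (54.7% on average) and for the 120-nt (39.0%) and 191-nt (82.9%) exons of *Puf60*. It also had the highest mean for the 100-nt exon of *Puf60* (9.16%) and the 205-nt exon of *Sf1* (56.4%).

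In the joined fit of the 44 member events with enough counts in all 12 libraries, 9 (20.5%) changed with refeeding in Lpin1-/- liver, 4 toward inclusion and 5 toward skipping, where 7.8% of all 28444 events changed, 5.31% toward inclusion and 2.5% toward skipping. They lay in 5 genes and used 7 skipping junctions. Of these calls 7 are given above. Another was the 68-nt version of exon 6 of *U2af1l4*, whose inclusion against the skipping junction alone rose from 5.63% to 40.9% on average (3.30 ± 0.84, adjusted p = 0.026), a call lost without any 1 of 5 Lpin1-/- libraries (adjusted p up to 0.123). The last was a coding exon of 97 nt in *Sf3b2*, which was included at 98.8% ± 0.487 in fasted and 100% in refed Lpin1-/- liver, on 1, 1 and 3 skipping reads against none (3.39 ± 0.77, adjusted p = 0.0152). Without the first fasted Lpin1-/- library this did not pass (adjusted p = 0.0584). In Lpin1+/+ liver no member event passed (8 at an unadjusted p under 0.05) and none of the 28444 did (1459 at an unadjusted p under 0.05), by limma. Fasted Lpin1-/- libraries serve in both this comparison and that of the genotypes, so the 2 sets of calls are not independent.

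In refed liver none of the 72 member events passed between genotypes by limma, where 0.97% of all events did. An unadjusted p under 0.05 was found for 15 of the 72, and for 9301 of all 65231 events tested. With precision weights 3 member events passed, and with a minimum on the rarer form 2. In the interaction of genotype and feeding no member event passed, where 0.777% of all joined events did. There 14 of the 44 member events had an unadjusted p under 0.05 by limma, and 3839 of all 28444 joined events. The U2AF and SF1 genes held most listed events of the members, while *Sf3a1* had 2 in fasted and 3 in refed liver and *Sf3a2* had 5 in fasted and none in refed liver. The SF3a genes and *Sf3b2* had no called event between genotypes in either table. In the fit of all 12 libraries the 97-nt exon of *Sf3b2* passed between genotypes in fasted liver (-2.71 ± 0.77, adjusted p = 0.0252). For *Sf3a3* and *Sf3b2* the shared event with most counts of its rarer form was an unannotated exon at low inclusion, of 93 nt at 0% to 1.44% in *Sf3a3* and of 59 nt at 0% to 0.5% in *Sf3b2* in fasted liver.

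Reading frames were followed from the start codon of the annotated coding transcripts with the exon put in or left out. Values are given for the transcript with the longest annotated frame among those that use both flanking splice sites. The annotated frames run for 239 codons in *U2af1*, 475 in *U2af2*, 564 in *Puf60*, 639 in *Sf1* and 1304 in *Sf3b1*. Without exon 2, *U2af1* met a stop after 19 codons. With the 64-nt or 60-nt exon, *U2af2* met one after 162 codons, at the first base of the exon. In another coding transcript of *U2af2*, which is annotated with the 64-nt exon, the frame was 307 codons with or without it. With the 120-nt exon *Puf60* met one after 18 codons, with the 100-nt exon after 9, and without the 191-nt exon after 367. *Sf3b1* met one after 144 codons with either of its 2 exons, at base 18 of each. *Sf1* met one after 59 codons with the 93-nt exon, and after 110 codons when the annotated exon it overlaps was skipped.

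In all of these forms of the transcripts with the longest frame, the stop lay upstream of the last exon junction. The distance was 103 bases in *Puf60* without the 191-nt exon and 430 to 3380 bases in the others. A stop placed well before the last junction is the textbook mark of a target of NMD. *U2af1l4* without exons 6 and 7 met no stop within the transcript with the longest frame. In another coding transcript, with 33 bases between the same splice sites, the form that skips them met a stop after 44 codons. The loss of exons 6 and 7 removes 230 bases, which is not a multiple of 3. The 205-nt exon of *Sf1* changed the end of the frame, with 638 codons with it and 548 without it.

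**Figure D4:**
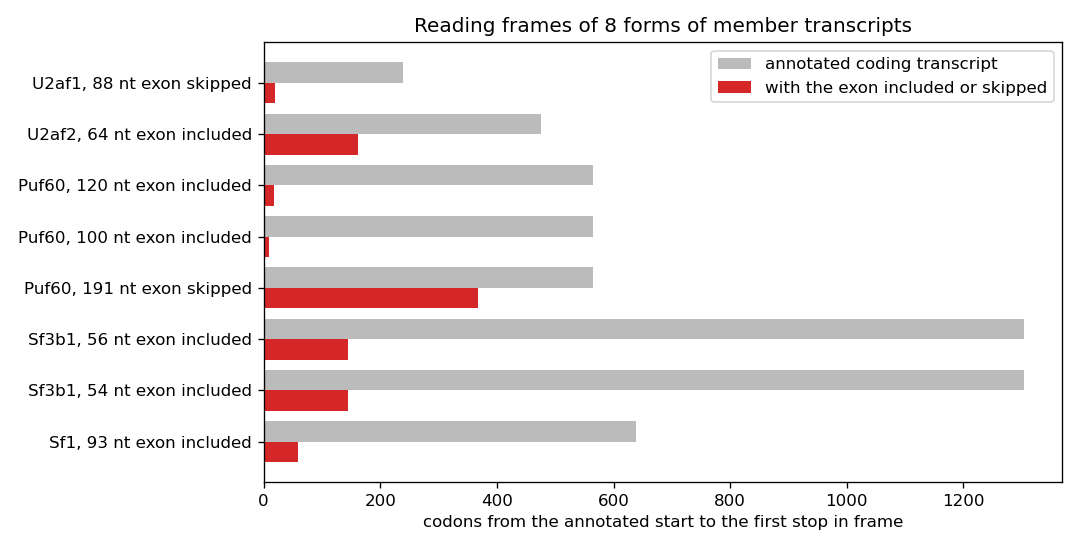
Codons from the annotated start to the first in-frame stop (horizontal axis) in the annotated coding transcript (grey) and in the same transcript with the named exon included or skipped (red). In the 8 forms drawn the stop came earlier, after 9 to 367 codons.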

How the data were processed

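Total RNA of 12 livers was sequenced as stranded 69 bp paired-end libraries, with about 150 M reads each per the labels. Per the labels and the study's methods, the authors aligned reads with HISAT2 2.0.5 to GRCm38 and counted them with HTSeq 0.6.0. They deposited RPKM for each library, and inclusion and skipping counts per SE event from rMATS, whose version is not given in the sources used here. The depth behind RPKM is not stated. The authors' p-values and inclusion differences were not used. Groups came from the labels, and the order of the count lists from the table titles and from equal Lpin1+/+ counts in a further deposited table (1523 and 1719 events).

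log2(RPKM + 1) was fitted with limma 3.58.1 (R 4.3.3, trend) over 4 groups, on the 11507 genes whose mean reached 0.5 RPKM. The log2 ratio of length-normalised counts (0.5 added) was fitted where every library had 10 or more counts for an event, by feeding state or over 34409 joined events. P-values were adjusted by Benjamini-Hochberg over all features, with a threshold of 0.05. The mice are separate animals. The fits were tested on simulated data. For levels, 41 of 100 changes of log2 1 and 89 of 100 of log2 2 were recovered. With 100 changed events of each size, the fasted fit recovered 1 at log2 3 and 60 at log2 5. The refed fit recovered 3 and 65. With 2500 of each, the fasted fit recovered 1415 and 2464 and the refed fit 1467 and 2465. A gene or event that did not pass may therefore still differ. Named events were, per gene, the one with most counts of its rarer form and the called events (the 8 of largest difference), and list genes the 4 of largest change. The members and lists were chosen with earlier results of these data known. Tables and figures were made with Python 3.11.15. Alternatives changed the pseudocount, filters, scaling, weights, block and libraries. HTSeq's strand setting is not stated, so genes that overlap another (*U2af1l4*, *Sf1*, *Sf3a2*, *Sf3a3*, *Sf3b2*) are less certain. The sequence and values of 1 member exon are not reported here.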

Additional observations from a re-analysis of the deposited data

How the results depend on the processing

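The called events considered here are the 11 of the fasted table and the 9 that changed with refeeding in Lpin1-/- liver. Events called between genotypes only in the fit of all 12 libraries were left out. No value of a called gene or of these events changed sign under any alternative run. Of 72 alternative values of the 4 called genes, 15 missed the threshold, and of 259 values of these events, 50 did. The number of genes called between genotypes in fasted liver (1) was 2 with a pseudocount of 0.1, 0 with no filter on low values, 4 with libraries rescaled, 0 with only the 6 libraries compared, and 0 to 2 when 1 library was left out. The 11 called events in fasted liver became 7 to 15 when 1 library was left out. The 0 called in refed liver became 2 with a mean of at least 5 counts for the rarer form and 3 with precision weights. The 9 that changed with refeeding in Lpin1-/- liver became 15 with precision weights and 5 to 8 without 1 library. In the interaction, 1 event (*U2af2*, 64 nt) in place of 0 passed with that minimum, with 1 added to each count, and in 1 fit without a library (0 to 1). The causes were not tested.

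The deviations of same-numbered libraries from their group means had correlations from -0.474 to 0.743 (18 pairs, median 0.0336, 8 above 0.1). The 36 pairs with other numbers had -0.7 to 0.628 (median -0.0491, 13 above 0.1). These correlations cannot show whether the numbers pair mice, and the main fits used no pairing. With the replicate block, the counts of called genes stayed at 0, 3, 1, 0 and 0. No paired analysis was possible for events because the count lists carry no replicate numbers. The edgeR alternative was not run, since the event counts are deposited as lists. With 3 mice per group, the spread between mice limits what small differences can show.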
